A study of Mus musculus with 2 samples.

Results

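The cells described here are 357 antigen-presenting myeloid cells of hindlimb muscle, picked by their transcripts from 14984 cells that passed the filters of a single-cell RNA-seq experiment on aged mice. They had to hold at least 2 unique molecular identifiers (UMIs, each standing for 1 captured transcript) summed over Cd209a, Flt3, Clec10a and Napsa, and at least 10 over H2-Ab1 and Cd74. They were also allowed at most 4 UMIs over C1qa, C1qb and C1qc and at most 1 over Cd79a, Ms4a1, Cd3e, Pecam1 and Pdgfra, which keeps out macrophages rich in complement C1q, B and T cells, endothelial cells and fibroblast-like cells. Levels of these genes are therefore given as a description of how the cells were chosen and not as a finding. The ATRA+agonist library gave 186 of these cells among 7467 kept cells and the DMSO vehicle library 171 among 7517.

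All mice were female C57Bl/6J animals of 24 months with no engineered allele named in the labels. The ATRA+agonist library came from muscles given ATRA, the all-trans form of retinoic acid and the active form of vitamin A, by injection together with CD3254 and BMS961, synthetic agonists of the retinoid X receptors and of retinoic acid receptor gamma. The control library came from muscles injected with the DMSO vehicle. Each library pooled the muscles of 2 mice after 3 injections, and the cells had been sorted with propidium iodide, a dye that enters dead cells. There was 1 library per group, so no difference between them has a replicate check, no p-value is given, and the treatment cannot be told apart from the mice, the sort or the library. Every interval below is a 95% interval that covers counting error only.

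Dendritic cells take up antigen in tissues, load peptides on major histocompatibility complex (MHC) class II molecules and carry them to lymph nodes, where they prime T cells. Type 1 conventional dendritic cells depend on Irf8 and Batf3, carry the chemokine receptor Xcr1 and the dead-cell receptor Clec9a, and are known for presenting captured antigen to cytotoxic T cells. Type 2 cells lean on Irf4, carry lectins such as Mgl2 and Clec10a, and present mainly to helper T cells. On maturation both kinds switch on Ccr7, which guides them along lymphatic vessels. Monocytes recruited from blood can also take on MHC class II and Cd209a in tissue, which is why a gate on these genes may hold more than one lineage. Dendritic cells handle vitamin A themselves, since some make retinoic acid through Aldh1a2.

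The 4 marker genes lie on 4 chromosomes. In build GRCm38, Cd209a, a lectin of the DC-SIGN family, spans 3743397 to 3748984 on chromosome 8 (minus strand), and Flt3, the receptor for the growth factor that drives dendritic development, spans 147330741 to 147400489 on chromosome 5 (minus strand). Clec10a, a galactose-binding lectin, spans 70156197 to 70170834 on chromosome 11 (plus strand). Napsa, an aspartic protease, spans 44572380 to 44586862 on chromosome 7 (plus strand).

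The gated cells held 2574807 UMIs in the ATRA+agonist library and 2237061 in the vehicle library. Their median was 13558 and 12667 UMIs per cell, against 4887 and 4959 over all kept cells, and a rule on raw UMIs finds more of the deep cells. Levels are given in CPM, the UMIs of a gene per 1000000 UMIs of the same cells. After every kept cell was thinned to 1000 UMIs, the same rule found 56 and 46 cells. No gated cell carried a barcode present in the other library, although 43 barcodes in all were present in both libraries. Just inside the rule, 10 ATRA+agonist and 18 vehicle cells had a marker sum of 2, and just outside it 25 and 12 cells had a sum of 1 with every other condition met.

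The label of Cd209a dendritic-like cells held for part of the gate only. A Cd209a UMI was found in 79 cells (42.5%, 35.3% to 49.9%) of the ATRA+agonist library and in 56 (32.7%, 25.8% to 40.3%) of the vehicle library. At a fixed 2000 UMIs per cell these shares were 32.2% and 24.6%. Endothelial cells, which should lack Cd209a, had such a UMI in 0 of 1777 and in 1 of 1785 cells (0.0560%) at median depths of 3790 and 3940 UMIs. Napsa was detected in 95.7% and 95.3% of the gated cells. It was the only one of the 4 markers present in 33 cells (17.7%) of the ATRA+agonist library and in 64 (37.4%) of the vehicle library, and 12 and 55 of these cells belonged to the class with monocyte genes described next.

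The gate was therefore divided into classes named by their genes, each cell going to the first class whose genes reached a set UMI count. Siglech marked 4 ATRA+agonist cells and 3 vehicle cells, too few to describe further. Ccr7 at 2 UMIs marked 19 and 4 cells. Xcr1 plus Clec9a at 2 UMIs marked 47 and 32 cells. A single UMI of Cd209a or Mgl2 marked 84 and 59 of the remaining cells, and 2 UMIs over Ly6c2, Treml4, Ace and Fcgr1 marked a further 19 and 64. The last 13 and 9 cells met none of these rules. Cells of the Cd209a/Mgl2, Ccr7, Xcr1/Clec9a and Ly6c2/Treml4/Ace/Fcgr1 classes had a median of 0 UMIs over the genes of every other class in both libraries. For the genes of earlier classes the order of the rules keeps these counts low by construction. Only the genes of later classes were free to differ, and 1 cell of the Ccr7 class held 62 UMIs of Cd209a and Mgl2. In all, 24 and 12 cells met more than 1 class rule and were settled by the order of the classes.

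**Figure D1:**
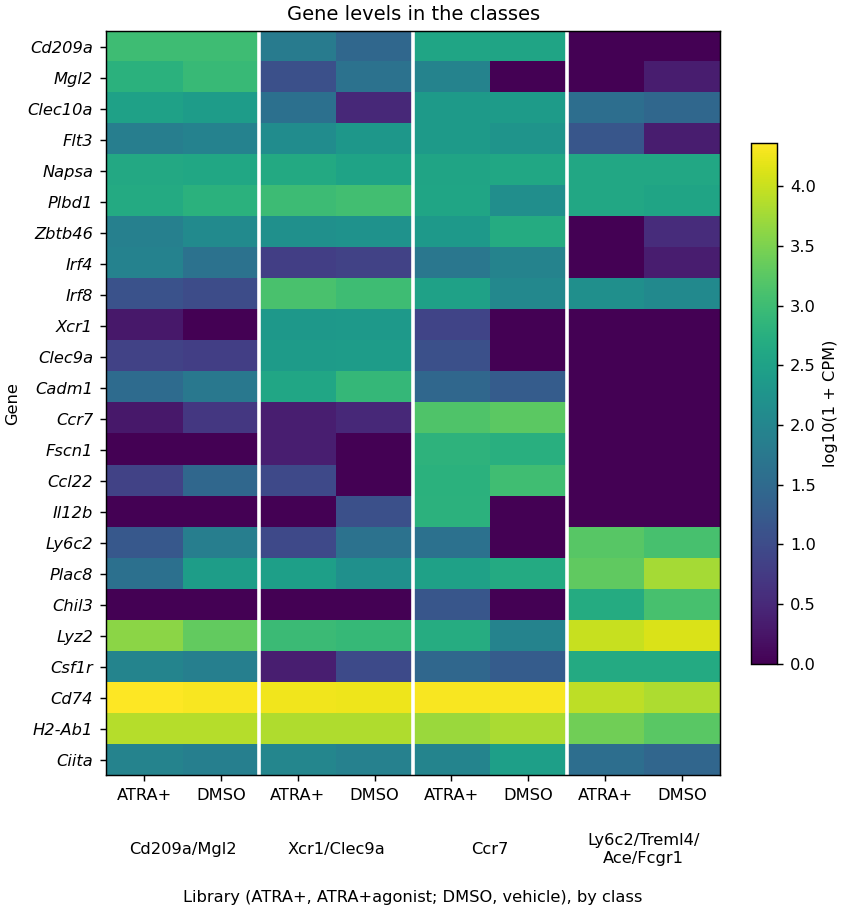
Levels of 24 genes in the main classes of gated cells, as log10 of 1 plus the CPM over the cells of a class, with the ATRA+agonist and DMSO vehicle libraries side by side. Napsa, Cd74 and H2-Ab1 were present throughout, while the genes of each class stood out in both libraries, which the rules set in part. The Ccr7 class of the vehicle library holds 4 cells.

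Genes were compared with all other kept cells, and the counts below include the genes of the rule. Of 9493 genes with at least 20 UMIs in the gated cells, 350 (3.69%) stood at least 4-fold higher in CPM than in all other kept cells of the same library, in both libraries. In a ranking of genes with at least 50 UMIs and outside the rule, the dendritic receptor Xcr1 came first. It stood at 62.5 CPM in the gated cells against 0.208 in other cells of the ATRA+agonist library. In the vehicle library it stood at 47.8 against 0.187. The 24 genes that followed it included Ccl22 and Ccl17, chemokines that attract T cells through Ccr4, at least 65.1-fold and 23.6-fold above the other cells in each library. They also included the lectin-like receptors Klri1 (65.4-fold), Klrb1b (36.2-fold) and Klrd1 (20.3-fold), the transcription factor Mycl (38.1-fold), which is known in dendritic cells, and Cd209c (31.9-fold), a relative of Cd209a. Many of these genes marked a minority of the gated cells, as Xcr1 was found in 39 of 186 and 31 of 171 cells and Ccl22 in 13 and 8. The phospholipase-like Plbd1 was common, found in 172 of 186 and 158 of 171 gated cells, at 594 and 586 CPM, and stood 18.8-fold and 19.4-fold above other cells. These ratios describe the gate and are no test, since the same cells were chosen on correlated genes. With the other cells limited to those holding Ptprc, the marker of all leukocytes, the number of genes at least 4-fold higher was 77.

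The share of gated cells did not differ beyond counting error between the libraries. They were 2.49% (2.15% to 2.87%) of the kept cells of the ATRA+agonist library and 2.27% (1.95% to 2.64%) of the vehicle library, a ratio of 1.10 with an interval of 0.892 to 1.34 that spans 1. Among cells with Ptprc they were 10.8% of 1674 cells and 17.0% of 977, a ratio of 0.636 (0.523 to 0.774). The denominators were unlike in makeup, and the B-cell gate, for one, held 196 cells in the ATRA+agonist library and 13 in the vehicle library. Shares of cells depend on the dissociation and the sort as well as on the tissue.

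The makeup of the gate differed more than its size. The Ccr7 class was 10.2% of the gated cells of the ATRA+agonist library and 2.34% of those of the vehicle library, a ratio of 4.37 (1.52 to 12.6). The Ly6c2/Treml4/Ace/Fcgr1 class went the other way, at 10.2% and 37.4%, a ratio of 0.273 (0.171 to 0.436). The Cd209a/Mgl2 class was 45.2% and 34.5% of the gated cells (ratio 1.31, 1.01 to 1.70), and the Xcr1/Clec9a class was 25.3% and 18.7% (ratio 1.35, 0.907 to 2.01). With every gated cell thinned to 5000 UMIs before the class rules were applied, the ratios were 3.23 for the Ccr7 class, 0.285 for the Ly6c2/Treml4/Ace/Fcgr1 class and 0.922 for the Xcr1/Clec9a class. These are shares of 1 whole, so a larger share of one class lowers the others.

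Cells were also counted by genes outside the class rules. At 2000 UMIs per cell, 68 of 171 vehicle cells (39.8%, 32.4% to 47.5%) held at least 3 UMIs over 6 other monocyte genes, against 21 of 183 ATRA+agonist cells (11.5%, 7.25% to 17.0%). Over 7 other genes of migratory dendritic cells, 9 ATRA+agonist cells (4.92%, 2.27% to 9.13%) and 3 vehicle cells (1.75%, 0.363% to 5.04%) held that many, and these intervals overlapped. For 7 other type 1 genes the shares were 25.1% and 23.4%, so the larger Xcr1/Clec9a share of the ATRA+agonist library was not seen at equal depth.

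**Figure D2:**
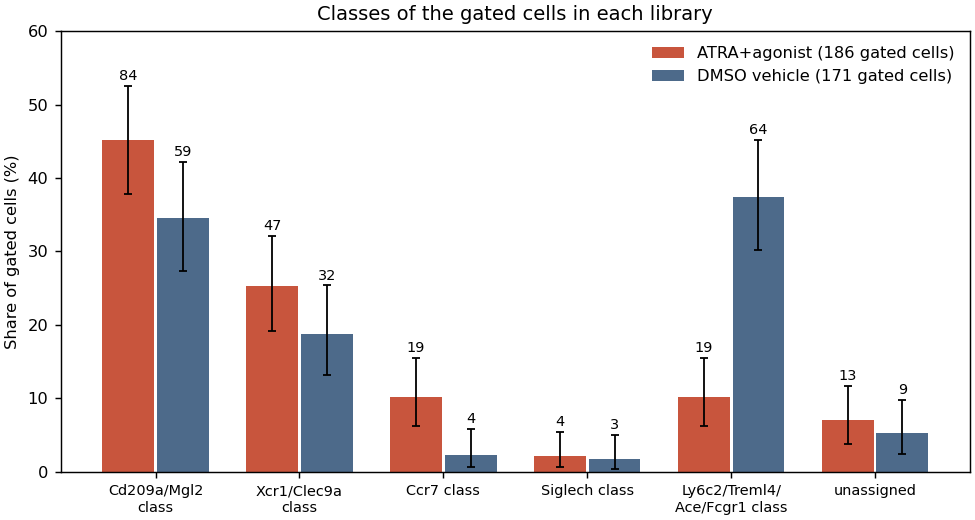
Share of the gated cells in each class, in percent, for the ATRA+agonist and DMSO vehicle libraries, with 95% exact binomial intervals as bars. The intervals of the Ccr7 and Ly6c2/Treml4/Ace/Fcgr1 classes do not overlap between the libraries, and each of the other classes has overlapping intervals.

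Over all gated cells, 381 of 9493 genes (4.01%) were at least 2-fold higher in the ATRA+agonist library and 384 (4.05%) at least 2-fold lower, with a median log2 ratio of -0.01. Ratios are ATRA+agonist over DMSO vehicle in CPM, on the log2 scale. Counts of list genes over all gated cells below are to be read beside the shares of 4.01% and 4.05%. The naming rule asks for a level over both libraries together at least that of other kept cells. A gene can pass it through the library where it is high, so the ranking is no support for a difference. The 10 genes furthest up by the naming rule included Ccl5, a chemokine for T cells and monocytes, with 1266 UMIs in 26 ATRA+agonist cells and 45 in 7 vehicle cells (log2 ratio 4.61, 4.18 to 5.07). Ccl5 stood at 2.22-fold the level of other kept cells in the ATRA+agonist library and 0.116-fold in the vehicle library. Fscn1, which bundles actin in migrating dendritic cells, had 190 and 32 UMIs (2.37, 1.82 to 2.96), and all of the vehicle UMIs lay in a single cell. Ccr7 itself had 412 and 106 UMIs (1.76, 1.44 to 2.08). The interferon-induced Oasl1 had 134 and 25 UMIs (2.22, 1.60 to 2.90), and Mir155hg, the host transcript of miR-155, had 177 and 52 (1.56, 1.11 to 2.04).

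The 10 genes furthest down included several known from monocytes and the acute-phase response. Saa3, a serum amyloid, had 1 UMI in the ATRA+agonist cells and 155 in 15 vehicle cells (log2 ratio -7.48, -12.79 to -4.98). It passed the naming rule through the vehicle library, at 14.6-fold the level of other kept cells against 0.365-fold in the ATRA+agonist library. Chil3, a chitinase-like protein of inflammatory monocytes, had 111 and 998 UMIs (-3.37, -3.67 to -3.09). Haptoglobin, Hp, had 58 and 510 (-3.34, -3.76 to -2.95). The lipoprotein gene Apoc2 had 9 UMIs in 6 cells and 206 in 49 cells (-4.72, -5.87 to -3.77), so its vehicle UMIs were spread over many cells.

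**Figure D3:**
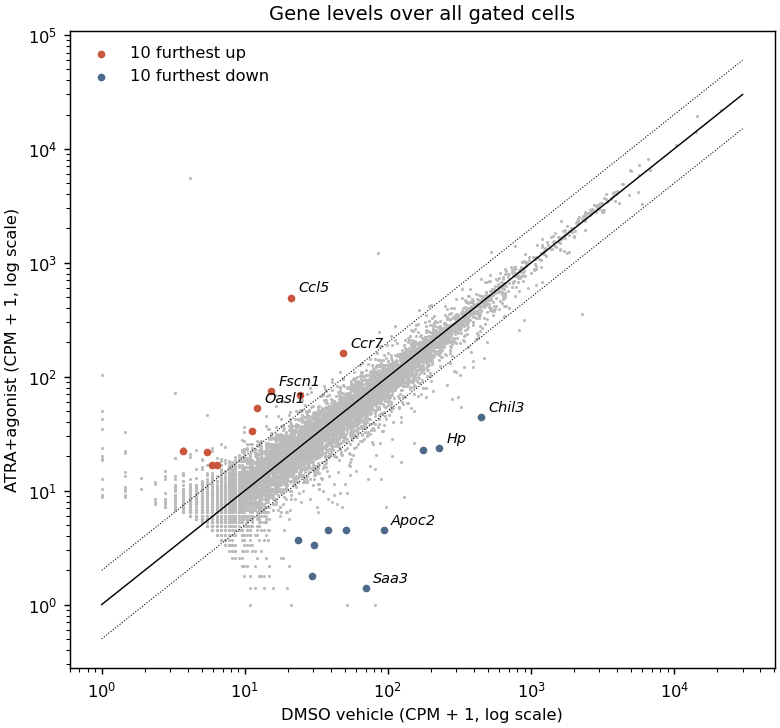
Level of each gene in the gated cells of the DMSO vehicle library (x axis) and the ATRA+agonist library (y axis), both as CPM plus 1 on log axes, with the 10 genes furthest up and the 10 furthest down by the naming rule in colour. The dotted lines mark 2-fold differences. Genes of monocytes such as Saa3, Chil3 and Hp lie below the diagonal, and Ccl5, Fscn1 and Ccr7 lie above it.

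The monocyte and migratory lists, which hold genes of the class rules, also differed between the libraries. Of 15 monocyte genes, 9 were at least 2-fold lower and 0 higher, against the 4.05% of all genes that were lower, and the median log2 ratio was -1.13. Plac8, a cysteine-rich protein of monocytes, had 918 and 5088 UMIs (-2.67, -2.78 to -2.57), and Ly6c2, the surface antigen of classical monocytes, had 512 and 1103 (-1.31, -1.46 to -1.16). Part of the 512 lay in 1 ATRA+agonist cell rich in immunoglobulin, described below. The Ly6c2/Treml4/Ace/Fcgr1 class held 1342 Ly6c2 UMIs over both libraries with that cell. Without it the class held 168 in the ATRA+agonist library and 978 in the vehicle library. The matrix proteoglycan Vcan had 16 and 215 UMIs. Ccr2, the receptor that brings monocytes out of the marrow, had 1444 and 1164 UMIs (0.11). With the Ly6c2/Treml4/Ace/Fcgr1 class left out, the median of the list was 0.04, and among gated cells with a Cd209a UMI it was 0.15. That class was chosen in part on Ly6c2, a gene of the list, so leaving it out cannot show a cause, which was not tested.

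Of 10 genes of patrolling monocytes, 2 were at least 2-fold lower, namely Ace and Treml4, which are genes of the class rule, and the median was -0.56. Of 11 macrophage genes, 1 was lower, the class gene Fcgr1, and 0 were higher (median -0.34). The mannose receptor Mrc1 was the highest of these, with 1511 and 738 UMIs and a log2 ratio of 0.83 (0.70 to 0.96). Of 34 receptors for microbial patterns and antibodies, 7 were at least 2-fold lower and 1 higher (median -0.27), beside 4.05% and 4.01% of all genes. The lower ones included the mincle receptor Clec4e with 111 and 272 UMIs (-1.5, -1.83 to -1.17) and the antibody receptor Fcgr4 with 30 and 198, and the higher one was the RNA sensor Ifih1 with 228 and 88.

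Of the 13 migratory genes, 11 were at least 2-fold higher, against the 4.01% of all genes, with a median of 1.23. Fscn1 and Ccr7 are given above. Cacnb3, a calcium channel subunit, had 54 and 10 UMIs (2.23, 1.24 to 3.37). The immune amino acid oxidase Il4i1 had 66 and 26 UMIs (1.14), and Socs2, a brake on cytokine signals, had 87 and 31 (1.29). Apol7c had 59 UMIs in 8 ATRA+agonist cells and 0 in the vehicle cells, at least 17.1-fold higher when 3 UMIs are taken for the vehicle library. Without the Ccr7 class the median of this list was 0.05, and among gated cells with a Cd209a UMI it was -0.34. The class was chosen on Ccr7, a gene of the list, so here too the cause was not tested. Il12b, the cytokine subunit that drives helper T cells toward interferon gamma, had 184 UMIs in 5 ATRA+agonist cells and 5 UMIs in 1 vehicle cell.

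Genes of antigen presentation stayed within 2-fold, as most genes did, since 4.01% of all genes were higher and 4.05% lower past it. All 16 measured MHC class II genes, among them H2-Ab1 and Cd74 of the rule, stayed within 2-fold (median 0.31). So did all 17 MHC class I genes (median -0.10) and all 16 costimulatory and checkpoint genes (median 0.14). Of the class II genes, 11 had intervals above 0 and 4 below it, and their sum had a log2 ratio of 0.35 (0.34 to 0.37). H2-Ab1, a class II chain and a gene of the rule, stood at 6388 and 5023 CPM. Ciita, the master regulator of class II genes, had 225 and 140 UMIs (0.48, 0.17 to 0.80). The costimulatory ligand Cd86 had 1023 and 849 UMIs (0.07, -0.07 to 0.20), and Cd83, which stabilises class II at the surface, had 1853 and 991 (0.70, 0.59 to 0.81). Inside the Cd209a/Mgl2 and Xcr1/Clec9a classes the class II medians were 0.02 and -0.01, and H2-Ab1 stood at -0.04 and -0.01.

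Of 25 dendritic genes outside the rule, 3 were at least 2-fold higher and 1 lower (median 0.32). The higher ones were Irf4 with 125 and 49 UMIs (1.15, 0.66 to 1.66), Klrd1 with 481 and 197 (1.08, 0.84 to 1.33), and Cd1d1, the lipid-presenting molecule, with 18 and 7. The lower one was Ccl17, with 59 and 113 UMIs (-1.14, -1.62 to -0.67). Zbtb46, a factor known from conventional dendritic cells, had 274 and 201 UMIs (0.24, -0.02 to 0.51), and the type 1 factors Irf8 and Batf3 had log2 ratios of 0.69 and 0.86. Of 26 chemokines and their receptors, 8 were higher and 2 lower (median 0.32), beside 4.01% and 4.05% of all genes. Cxcl9, which draws T cells through Cxcr3, had 244 and 89 UMIs (1.25, 0.90 to 1.62), although its log2 ratio was -2.45 among gated cells with a Cd209a UMI. Elsewhere Cxcl9 stood at 1.49 (0.76 to 2.28) in C1q macrophages, -0.93 (-1.02 to -0.84) in endothelial cells and -0.16 (-0.35 to 0.03) in mesenchymal cells.

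The question put by the treatment is whether genes of the retinoic acid pathway responded in these cells. Of 19 measured genes, 3 were at least 2-fold higher and 1 lower, beside 4.01% and 4.05% of all genes. The median was 0.09, so most stood near the all-gene median. Dhrs3, a retinaldehyde reductase that is a known target of retinoic acid, had 91 UMIs in 50 ATRA+agonist cells and 35 in 23 vehicle cells (1.18, 0.60 to 1.78). Aldh1a2, which makes retinoic acid, had 58 and 21 UMIs (1.26, 0.52 to 2.06). The retinoic acid carrier Fabp5 had 584 and 233 UMIs (1.12, 0.90 to 1.35), of which 423 and 104 lay in the Ccr7 class. Tgm2, a transglutaminase often induced by retinoic acid, was lower, with 77 and 157 UMIs (-1.23, -1.64 to -0.83). The receptors themselves differed little, at -0.28 for Rara, 0.25 for Rarg and 0.27 for Rxra, and Rarb had only 11 and 9 UMIs. Among gated cells with a Cd209a UMI the ratios of Aldh1a2 (-0.58), Fabp5 (-0.58) and Tgm2 (0.86) took the opposite sign.

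Within the Cd209a/Mgl2 class alone, Dhrs3 had 51 UMIs in 26 cells and 10 in 8 cells (1.76, 0.77 to 2.91). In other cells of the same libraries Dhrs3 had log2 ratios of 0.50 (0.39 to 0.61) in endothelial cells, 0.22 (0.04 to 0.40) in C1q macrophages and -0.24 (-0.46 to -0.03) in mesenchymal cells. At 2000 UMIs per cell the share of gated cells with a Dhrs3 UMI was 3.83% and 4.09%, which is near the level of single UMIs and shows no order. Within the Cd209a/Mgl2 class Aldh1a2 had 31 and 14 UMIs (0.56, -0.39 to 1.58), Fabp5 had 107 and 55 (0.37, -0.11 to 0.87) and Tgm2 27 and 15 (0.26, -0.70 to 1.28), and each of these intervals spans 0.

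Some interferon-induced genes were higher in a small number of cells. Of 48 measured type I interferon genes, 10 were at least 2-fold higher and 0 lower, beside 4.01% and 4.05% of all genes, with a median of 0.27. The intervals of 22 genes lay above 0 and those of 7 below it. Summed over the list, the log2 ratio was -0.15 (-0.18 to -0.12). Isg15, a ubiquitin-like modifier, had 634 and 190 UMIs (1.54, 1.30 to 1.78), Rsad2, the antiviral enzyme viperin, 140 and 35 (1.80, 1.25 to 2.38), and Ifit2 90 and 20 (1.97, 1.26 to 2.75). Bst2 and Stat2 stood near 0 (0.01 and -0.03), and Ifitm3, a block to viral entry, had 3182 and 4111 UMIs (-0.57). The 10 higher genes together held 1403 and 391 UMIs, but the median gated cell had 1 UMI of them in either library. The 10 highest cells held 65.1% of those UMIs in the ATRA+agonist library and 43.0% in the vehicle library, and 15 and 2 cells had at least 20. Isg15 was not higher in other cell types, at 0.14 in C1q macrophages, -0.23 in endothelial cells and -0.34 in mesenchymal cells.

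Promoter windows of 4 of the higher interferon genes are shown because they carry a short element known to be bound by interferon-activated factors. GAAANNGAAA was searched on both strands in the 250 bases before each gene's start (RefSeq, GRCm38.p6). It was found in 5 of the 9 higher genes with a promoter in the table (55.6%) and in 14 of the 31 other genes of the list with one (45.2%), against 3.46% of all 27025 genes with a promoter. The windows below run 5′ to 3′ on the strand of the gene, and capitals mark the match, which reads in the reverse complement where it opens with TTTC. They lie at chr4:156200871-156200900 (minus strand), chr12:26456553-26456582 (minus strand), chr19:34640775-34640804 (plus strand) and chr19:34583363-34583392 (plus strand), in that order.
Isg15: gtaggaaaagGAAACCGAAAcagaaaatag
Rsad2: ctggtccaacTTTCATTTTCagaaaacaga
Ifit1: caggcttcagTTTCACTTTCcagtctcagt
Ifit3: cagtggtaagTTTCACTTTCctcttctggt
The Isg15 window holds 3 overlapping matches, of which the capitals mark the one whose first base lies 72 bases before the start. The match is a description of the letters and not a measured binding site. The direct repeat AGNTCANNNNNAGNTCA, the letters of a kind of retinoic acid response element, was present in 0.198% of promoters. It was found in none of the windows of Dhrs3, Aldh1a2, Fabp5, Rarb and Tgm2. The pattern fixes A as the opening letter of each repeat, so elements that open with another letter could not match. The search therefore cannot show whether these promoters lack a response element.

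**Figure D4:**
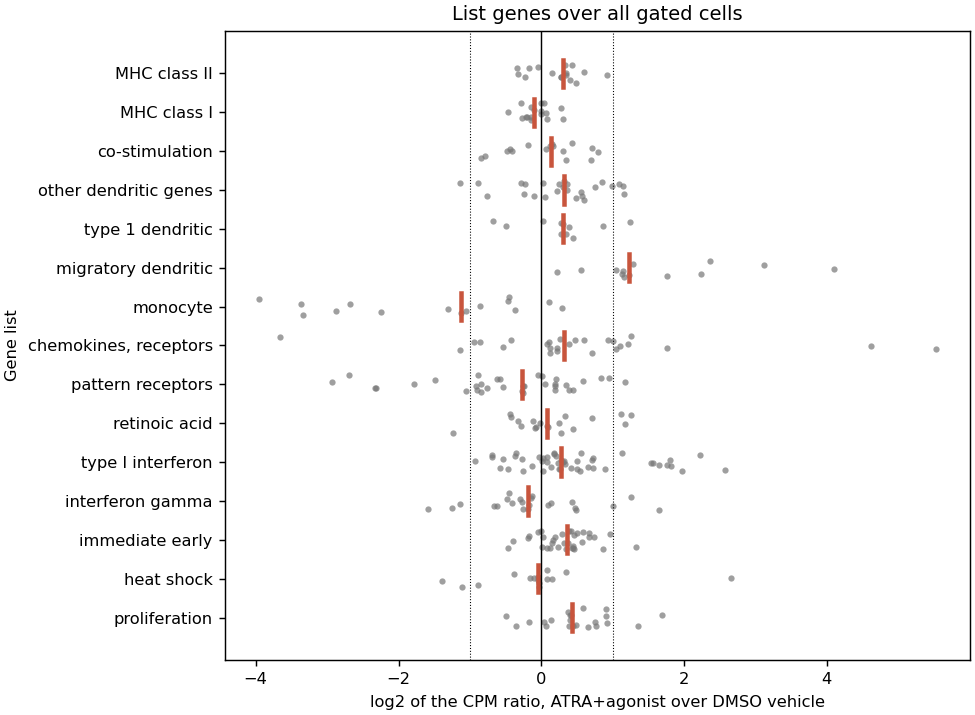
Log2 ratio (ATRA+agonist over DMSO vehicle) of each measured gene in the lists, 1 point per gene with at least 20 UMIs in the gated cells, with the list median as a line. The 13 migratory genes lie above 0 with a median of 1.23, the monocyte genes have a median of -1.13, and the MHC class II genes stay within 2-fold with a median of 0.31. Points of genes with no vehicle UMI, such as Apol7c, are lower bounds.

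Stress and early response genes were also measured. Of 34 immediate early genes, 1 was at least 2-fold higher and 0 lower (median 0.36), namely Egr1 with 719 and 248 UMIs (1.33, 1.12 to 1.55), and Fos stood at 0.86 (0.78 to 0.95). Such genes can be switched on during dissociation. In other cells of the same libraries Fos stood at 0.30 (0.25 to 0.35) in C1q macrophages, 0.26 (0.23 to 0.29) in mesenchymal cells and 0.07 (0.04 to 0.10) in endothelial cells, and Egr1 at -0.15, -0.08 and 0.00. Of 15 heat shock genes, 1 was higher and 2 lower (median -0.05), and Hspa1b had 179 and 337 UMIs (-1.12, -1.39 to -0.85). Elsewhere Hspa1b stood at -1.30 (-1.53 to -1.07) in C1q macrophages, -0.78 (-0.89 to -0.67) in endothelial cells and -0.10 (-0.28 to 0.08) in mesenchymal cells. Of 19 genes induced by glucocorticoids 1 was lower, Fkbp5, a co-chaperone of steroid receptors, with 45 and 99 UMIs (-1.34, -1.88 to -0.82). The Fkbp5 difference was not limited to the gated cells, since it was -1.84 (-2.23 to -1.46) in C1q macrophages, -1.26 (-1.5 to -1.02) in endothelial cells and -0.98 (-1.10 to -0.86) in mesenchymal cells.

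Transcripts of other cells moved with the libraries as well. All 7 muscle fiber genes were at least 2-fold higher in the gated cells of the ATRA+agonist library, at 281 and 67.5 CPM in sum, and Acta1, skeletal actin, had 175 and 34 UMIs, with 74.3% of the former in 1 cell. The Ccr7 class held 466 and 2 of the 724 and 151 fiber UMIs, while the Cd209a/Mgl2 class had 168 and 184 CPM of them (-0.13, -0.46 to 0.19). Endothelial cells showed Acta1 at 2.85 (2.47 to 3.25). Of 5 erythroid genes, 4 were lower, and the hemoglobin gene Hbb-bs stood at -1.53 in the gated cells and -1.47 in endothelial cells. B-cell genes summed to 6824 and 108 CPM, and 17773 of the 28436 UMIs (62.5%) of a single ATRA+agonist cell of the Ly6c2/Treml4/Ace/Fcgr1 class were immunoglobulin. The part of free RNA and of doublets in the differences above was not tested.

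Within the Cd209a/Mgl2 class, 84 and 59 cells, 281 of 7012 genes (4.01%) were at least 2-fold higher and 195 (2.78%) lower. The level of Cd209a in this class, 1024 and 1032 CPM, is set by the rule in part. Of 11 monocyte genes measured in this class, 1 was at least 2-fold higher and 3 lower (median 0.27). The higher one, F13a1, the clotting factor XIII subunit, had 143 UMIs in 18 cells and 21 in 7 cells (2.18, 1.51 to 2.92). The lower ones included Plac8 with 44 and 202 UMIs (-2.79, -3.29 to -2.31). The inhibitory lectin Clec12a, of the list of pattern receptors, had 90 UMIs in 45 cells and 14 in 13 (2.10, 1.28 to 3.02), and was found in more cells than F13a1 in both libraries. Retnla, a resistin-like protein of alternatively activated myeloid cells that was chosen after its values were seen, had 2690 UMIs in 14 cells and 577 in 11 cells (1.63, 1.5 to 1.77).

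Of 19 chemokines and their receptors in the same class, 4 were at least 2-fold higher and 5 lower (median 0.14). Cxcl2, which attracts neutrophils, had 536 and 58 UMIs (2.62, 2.23 to 3.04), with the highest cell holding 26.3% and 58.6% of them. Ccl2, which attracts monocytes, had 224 UMIs in 31 cells and 66 in 18 cells (1.18, 0.77 to 1.59), and the cytokine Tnf had 93 and 27 (1.20, 0.57 to 1.87). Among the lower ones, Cxcl10 had 123 and 178 UMIs (-1.12, -1.46 to -0.78) and Cxcl9 6 and 22 (-2.46, -4.05 to -1.12). Ccl17 had 26 and 107 UMIs (-2.63, -3.31 to -2.00), of which the highest cell held 42.3% and 53.3%, and Ccl22 had 7 and 21 (-2.17, -3.65 to -0.88), the former all in 1 cell. The serotonin receptor Htr7 was lower at 35 and 74 UMIs (-1.67, -2.29 to -1.07). Heme oxygenase, Hmox1, had 30 and 74 UMIs (-1.89, -2.55 to -1.26), and 4 of 14 heat shock genes and 3 of 19 glucocorticoid genes were at least 2-fold lower, among them Hspa1b (-1.66, -2.01 to -1.31) and Fkbp5 (-1.49, -2.47 to -0.57). Outside the gate Hmox1 stood at -0.89 (-1.03 to -0.76) in C1q macrophages, -0.89 (-1.10 to -0.67) in mesenchymal cells and 0.03 (-0.32 to 0.38) in endothelial cells. The type I interferon genes of the Cd209a/Mgl2 class had a median of -0.05, with 3 of 40 higher and 1 lower.

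Within the Xcr1/Clec9a class, 47 and 32 cells, 329 of 5857 genes (5.62%) were at least 2-fold higher and 202 (3.45%) lower. Here 16 of 32 type I interferon genes were higher and 0 lower, with a median of 0.95 beside 0.04 for all genes of the class. Isg15 had 152 UMIs in 15 cells and 22 in 7 (2.12, 1.47 to 2.84), with 36.2% and 72.7% of them in 1 cell, and the small mitochondrial protein Ifi27l2a had 393 in 34 cells and 61 in 15 (2.02, 1.63 to 2.43). Irf7, which amplifies the interferon response, had 85 and 12 UMIs (2.16, 1.28 to 3.16), and the RNA sensor Ifih1 had 48 in 16 cells and 4 in 4 cells (2.92, 1.47 to 4.85). Cxcl9 had 100 and 3 UMIs, of which 66.0% of the former lay in 1 cell.

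Of 16 proliferation genes in this class, 8 were at least 2-fold higher and 0 lower (median 0.94), beside 5.62% and 3.45% of all genes of the class. Summed over the list there were 3341 and 2025 UMIs, a log2 ratio of 0.05 (-0.03 to 0.13) whose interval spans 0. Mki67, a mark of cycling cells, had 29 UMIs in 9 cells and 8 in 5 cells (1.19, 0.02 to 2.53), and Stmn1, which unsettles microtubules, had 89 in 15 cells and 20 in 9 (1.49, 0.77 to 2.26). Pcna, the replication clamp, had 57 and 46 (-0.36, -0.95 to 0.23). Genes of type 1 identity that were not in the rule were close or lower, with Wdfy4 and Naaa, both known from these cells, at 0.04 and 0.13, and the adhesion genes Cadm1 and Itgae each at -1.05.

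Within the Ly6c2/Treml4/Ace/Fcgr1 class, 19 and 64 cells, 313 of 5561 genes (5.63%) were at least 2-fold higher and 598 (10.8%) lower, with an all-gene median of -0.14. The immunoglobulin-rich cell held 28436 of the 217733 UMIs of the ATRA+agonist cells, and without it 408 of 5518 genes were higher and 488 lower, with a median of -0.02. The following ratios leave that cell out. Plac8 was lower with 427 and 4684 UMIs (-1.39, -1.54 to -1.25), as were Chil3 (-1.16, -1.46 to -0.87) and Hp (-1.20, -1.63 to -0.79), so these monocyte genes were lower within the class as well as over the whole gate. Saa3 had 1 and 155 UMIs, the interferon gamma-induced GTPase Iigp1 0 and 161, and the neutrophil and monocyte gene S100a8 0 and 177.

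Other genes were higher in the ATRA+agonist cells of this class, often through 1 cell. The chemokine Cxcl10 had 181 and 36 UMIs (4.39, 3.87 to 4.95), with 87.8% of the former in 1 cell, and the mannose receptor Mrc1 had 61 and 26 (3.29, 2.61 to 4.02), with 70.5% in 1 cell. Rsad2 had 61 and 17 UMIs (3.91, 3.11 to 4.78), of which 1 cell held 54.1% of the former. Isg15, with 108 UMIs in 9 cells and 93 in 35 (2.28, 1.87 to 2.70), and Apoe, the lipid carrier of macrophages, with 499 in 15 cells and 731 in 49 (1.51, 1.35 to 1.68), were spread more widely. The class II gene H2-Ab1 stood at 0.77 (0.63 to 0.91), but it is a gene of the rule that chose the cells. In contrast, Gbp2, a GTPase induced mainly by interferon gamma, had 21 and 291 UMIs (-1.73, -2.44 to -1.09).

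The Ccr7 class had only 4 vehicle cells, so its values are given with no reading of a difference. Ccl5 had 1131 UMIs in 13 of 19 cells and 32 in 3 of 4 cells, and Fscn1 had 189 in 10 cells and 32 in 1. Isg15 had 243 UMIs, of which 62.1% lay in 1 cell, and 1 UMI in the vehicle cells. Cd74 stood at 20952 and 21135 CPM, a log2 ratio of -0.01.

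**Figure D5:**
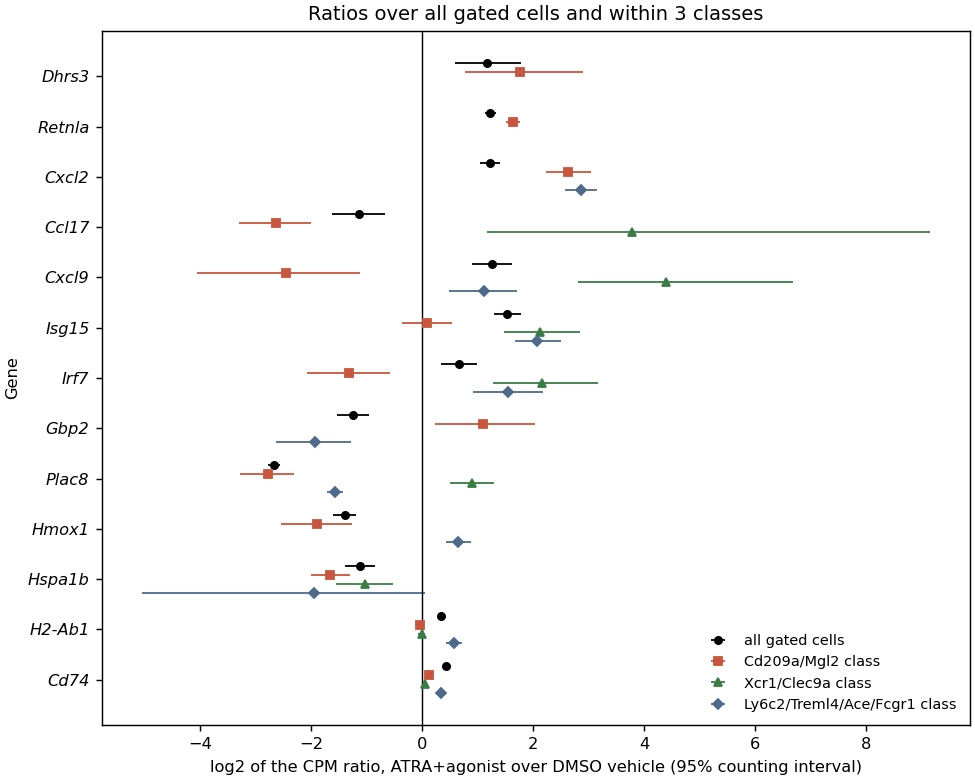
Log2 ratio (ATRA+agonist over DMSO vehicle, x axis) of selected genes over all gated cells and within the Cd209a/Mgl2, Xcr1/Clec9a and Ly6c2/Treml4/Ace/Fcgr1 classes, with 95% counting intervals as bars. Isg15 lies above 0 in the latter 2 classes and near 0 in the Cd209a/Mgl2 class. Other interferon genes differ, as Irf7 and Cxcl9 lie below 0 in the Cd209a/Mgl2 class. Gbp2 lies above 0 in that class and below 0 in the Ly6c2/Treml4/Ace/Fcgr1 class. The immunoglobulin-rich cell is included, and leaving it out moves every ratio of its class up by 0.20.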

How the data were processed

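The authors deposited raw 10x matrices of UMI counts made with Cell Ranger 7.2.0 on the mm10 (GRCm38) transcripts, with 32285 genes and 1 matrix per library (10444 and 17394 barcodes, 65197625 and 109343486 UMIs for ATRA+agonist and DMSO vehicle). Barcodes with 300 to 5000 genes, under 20% mitochondrial UMIs and under 0.25% Hbb UMIs were kept, and the gate was applied to raw counts. Filters, gate, classes and gene lists were chosen with earlier results of these data known. UMIs were summed over the gated cells of a library and given as CPM. Log2 ratios carry exact conditional intervals, shares carry exact (Clopper-Pearson) intervals and ratios of shares carry log-scale intervals, all at 95% and for counting error only, since a group is 1 library of 2 pooled mice. A gene counts as higher or lower past 2-fold with at least 20 UMIs over the gated cells. In a fold against 0 UMIs, 3 UMIs stand for the 0.

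Named genes were the genes of the rule and list genes with at least 20 UMIs. The 25 genes highest over other kept cells (at least 50 UMIs) and the 10 furthest up and down between libraries were also named. The latter had at least 50 UMIs in at least 10 gated cells, with hemoglobin and immunoglobulin left out. Their level over both libraries together was at least that of other kept cells. Within classes, genes of these sets were named, and Retnla was added after its values were seen. Doublets were left in, and removing 7.5% of the cells of each library with the most simulated doublets among their neighbors was an alternative, besides other filters, gate limits, scalings, depths and UMI minimums. The scripts were tested on simulated counts. Python 3.11.15, NumPy 2.4.6, pandas 2.3.3, SciPy 1.17.1, scikit-learn 1.9.0 and Matplotlib 3.10.9 were used. Some items are not reported here.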

Additional observations from a re-analysis of the deposited data

Results flagged for a closer look

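Of 264 list genes that could be compared between classes, 7 were at least 2-fold higher in one class of the gated cells and at least 2-fold lower in another, each interval leaving out 0. The same count was not made over all genes, so the 7 have no share to be read beside. These differences between classes were not tested, and no class has a replicate. The values of the Ly6c2/Treml4/Ace/Fcgr1 class here include its immunoglobulin-rich cell. As given above, a single cell held most ATRA+agonist UMIs of Cxcl9 in the Xcr1/Clec9a class and of Cxcl10 in the Ly6c2/Treml4/Ace/Fcgr1 class. Ccl17 had a log2 ratio of 3.79 in the Xcr1/Clec9a class, where 22 UMIs lay in 3 cells, and of -2.63 in the Cd209a/Mgl2 class. Cxcl9 stood at 4.39 in the Xcr1/Clec9a class, 1.11 in the Ly6c2/Treml4/Ace/Fcgr1 class and -2.46 in the Cd209a/Mgl2 class, and Cxcl10 at 4.19 in the Ly6c2/Treml4/Ace/Fcgr1 class and -1.12 in the Cd209a/Mgl2 class. Irf7, the amplifier of the interferon response, stood at 2.16, 1.55 and -1.31 in the Xcr1/Clec9a, Ly6c2/Treml4/Ace/Fcgr1 and Cd209a/Mgl2 classes. Gbp2 went the other way, at 1.09 in the Cd209a/Mgl2 class and -1.93 in the Ly6c2/Treml4/Ace/Fcgr1 class. The early response gene Egr3 stood at 1.61 in the Cd209a/Mgl2 class and -1.15 in the Xcr1/Clec9a class, and Tnip3, a brake on NF-kB signaling, at 1.09 in the Ly6c2/Treml4/Ace/Fcgr1 class and -1.22 in the Xcr1/Clec9a class.

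Among the barcodes removed by the filters, 14 of 2977 (0.47%) met the gene rule in the ATRA+agonist library, against 16 of 9877 (0.162%) in the vehicle library, and the difference was not tested. Of these barcodes, 10 and 12 failed on hemoglobin UMIs and 4 and 6 on the maximum of genes.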

How the results depend on the processing

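Of 187 comparisons of the main values with an alternative, 162 kept their value or count, and of 559 comparisons over 35 named genes 452 did. The limits are the single library per group and the depth, since a rule on raw UMIs found 56 and 46 gated cells after thinning kept cells to 1000 UMIs. Asking for a Cd209a UMI left 79 and 56 cells (ratio of shares 1.42), 223 genes lower and medians of -0.34 for migratory, 0.15 for monocyte and 0.0773 for class II genes. It also turned the Cd209a/Mgl2 share ratio (0.94) and the log2 ratios of Aldh1a2 (-0.58), Fabp5 (-0.58), Tgm2 (0.86), Cxcl9 (-2.45) and Gbp2 (1.59). Without the Ly6c2/Treml4/Ace/Fcgr1 class, an alternative chosen after seeing the data, the vehicle library had 107 gated cells (ratio of shares 1.57), 206 genes were lower, and the medians were 0.0390 for monocyte, 0.0923 for class II and 0.19 for immediate early genes, with Tgm2 at 0.69 and Gbp2 at 2.14. Without the Ccr7 class, also chosen after seeing the data, the migratory median was 0.0523. The share among Ptprc cells gave a ratio of 0.636, and Ptprc cells as the other cells left 77 genes at least 4-fold higher. Thinning gated cells to 1000 UMIs left 106 genes higher and 169 lower and a monocyte median of -0.60. With at least 50 UMIs 153 genes were higher and 203 lower, and with at least 10 UMIs 664 and 603. The causes were not tested, except that the UMI minimum and the thinning by construction set how many genes were measured. No paired analysis was possible because each group had 1 library and no test was made.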

Other observations

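Gene groups not described above were measured over all gated cells in the same way. Of 22 proliferation genes, 2 were at least 2-fold higher and 0 lower (median 0.43), namely Cenpf with 26 and 7 UMIs and Ube2c with 56 and 19, both of which act in mitosis. Of 18 cytokine genes, 2 were higher and 1 lower (median 0.43). Besides Il12b these were osteopontin, Spp1, with 87 and 30 UMIs, and Tnfsf13, which sustains antibody-producing cells, with 69 and 124. Of 23 genes induced by interferon gamma, 3 were higher and 3 lower (median -0.19). Of 10 plasmacytoid genes, 3 were higher (median 0.82), among them Ly6d with 180 and 54 UMIs, although the Siglech class held only 4 and 3 cells. Of 29 genes of lipid and sterol handling, 2 were higher and 1 lower (median 0.10), and of 18 S100 and annexin genes 1 was higher and 1 lower (median 0.06). The medians of these last groups lay close to the all-gene median of -0.01.

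Cells with at least 2 Ly6c2 and 5 Lyz2 UMIs were counted among all kept cells, under the limits of the gate on C1q and other lineage genes. They numbered 39 in the ATRA+agonist library and 129 in the vehicle library, and 15 and 46 of them were in the gate. By this rule the lower count was not limited to the gated cells. A narrower gate also allowed at most 9 UMIs over S100a8 and S100a9 and 1 over the 4 marker genes. It held 5 ATRA+agonist and 3 vehicle cells, so the lower count was not seen there. What the remaining cells were was not tested.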
